A study of Mus musculus with 23 samples.

Results

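Transcripts of the epidermal growth factor receptor gene Egfr, of the RAS family genes Hras, Nras, Mras and Rras2 and of the MAP kinase genes Mapk3, Mapk12 and Mapk14 were measured in TM4 cells, a mouse cell line that derives from Sertoli cells of the testis. All non-control probes whose RefSeq transcript belonged to these 8 genes were taken, which gave 17 of the 55681 probes on the array, where 20145 genes could be named. The cells were exposed for 48 hours to 100 μM of a plasticizer or plasticizer metabolite in 1% DMSO, or to 1% DMSO alone. The compounds were MEHP, the monoester of a phthalate plasticizer, DINCH, a cyclohexane dicarboxylate ester, DOM, a maleate diester, BDB, a dibenzoate, and DOS, a succinate diester. There were 4 replicate cultures per group and 3 for DOS (replicates 1, 3 and 4), each on its own 1-colour array, 23 arrays in all.

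EGFR is a receptor tyrosine kinase at the cell surface that is activated by EGF-like ligands and recruits adaptors and exchange factors that load RAS proteins with GTP. GTP-bound RAS engages RAF kinases, which pass the signal through MEK to ERK, and ERK induces immediate early genes along with its own feedback inhibitors. The p38 kinases form a parallel branch that responds to stress and cytokines, and in the testis Sertoli cells use both branches in hormone and growth factor signalling and in the maintenance of their junctions.

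Levels are given as log2 of the processed spot intensity relative to the 75th percentile of the array, so a level of 0 is the intensity at that percentile, and levels of different probes are not comparable. A probe was called when its adjusted p, from limma with Benjamini-Hochberg over all tested probes, was under 0.05 and its change exceeded 1.5-fold (0.58 on the log2 scale). Of the 17 probes, 15 passed the filter on dim probes in every comparison. The remaining pair were the Mras probe A_55_P2154322, well above background on 4 of 23 arrays, and the Hras probe A_55_P1979536, well above background on none. The array RNA came from whole cultures, in which fewer cells of a kind and less RNA per cell cannot be told apart.

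The 75th percentile signal lay between 204.6 and 350.7, and 43.4 to 52.2% of probes were well above background. Among Sertoli cell markers, Dhh, Gata4, Inhbb, Kitl and Sox9 were well above background on all DMSO arrays, Clu on some of them, and Amh, Cldn11, Fshr, Trf and Wt1 on none. Germ cell markers were above background on all DMSO arrays for 0 of 5 genes, Leydig cell markers for 1 of 5 (Cyp17a1), peritubular myoid markers for 2 of 4 (Acta2, Cnn1) and macrophage markers for 1 of 3 (Csf1r). The scanner software marked every extraction measure as in range on 15 of 23 arrays. Not among these were DINCH replicates 1 and 2, DOM replicates 3 and 4, replicate 3 of MEHP, BDB and DOS, and DMSO replicate 4. MEHP, DINCH and BDB lay at other positions on the slides than DMSO, so position and compound cannot be told apart for these 3, whereas DOM and DOS lay at the same positions as DMSO.

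The member genes moved with different compounds, each set against the same DMSO arrays. On its brightest probe Mras rose with DINCH, as did Mapk12, the gene of p38 gamma, and 1 of 3 Egfr probes. The dimmer tested Mras probe was not called, nor was the brightest Egfr probe, A_52_P106259 for the transcript NM_207655 (0.36, limma adjusted p = 0.111). The called Egfr probe reads another transcript, NM_007912, and what each transcript encodes was not examined. Mapk12 also rose with MEHP. The Egfr call was lost in 7 of 8 runs that left out 1 array, and that of Mapk12 with MEHP in 6 of 8. Rras2, which encodes a GTPase of the R-Ras group, fell 2.45-fold with DOM. With BDB and DOS 0 of the 15 tested probes were called. Over all tested probes the called share was 1.22% with MEHP, 6.14% with DINCH, 16.6% with DOM and 0% with BDB and with DOS. No probe of Hras, Nras, Mapk3 or Mapk14 was called with any compound against DMSO.

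RefSeq promoter sequences were listed for 7 of the 8 genes (GRCm38.p6, from 250 bases before to 50 bases after the start). Those of the 3 genes called with DINCH and of the gene called with DOM are shown on the strand of the gene, so that the start regions of genes that moved together can be read side by side. Capitals mark matches on either strand to 5 motifs: the GC box GGGCGG, the AP-1 motif TGANTCA, the CRE TGACGTCA, the ETS motif CCGGAAG and the E box CACGTG. The Egfr window lies at chr11:16751953-16752252 (plus strand), that of Mras at chr9:99436663-99436962 (minus strand), that of Mapk12 at chr15:89140654-89140953 (minus strand) and that of Rras2 at chr7:114117732-114118031 (minus strand).
Egfr: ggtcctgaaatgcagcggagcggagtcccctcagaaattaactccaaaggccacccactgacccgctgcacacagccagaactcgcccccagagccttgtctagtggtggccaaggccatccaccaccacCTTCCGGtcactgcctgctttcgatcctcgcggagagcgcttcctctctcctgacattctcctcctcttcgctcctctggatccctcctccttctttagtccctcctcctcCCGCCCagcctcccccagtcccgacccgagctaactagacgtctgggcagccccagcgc
Mras: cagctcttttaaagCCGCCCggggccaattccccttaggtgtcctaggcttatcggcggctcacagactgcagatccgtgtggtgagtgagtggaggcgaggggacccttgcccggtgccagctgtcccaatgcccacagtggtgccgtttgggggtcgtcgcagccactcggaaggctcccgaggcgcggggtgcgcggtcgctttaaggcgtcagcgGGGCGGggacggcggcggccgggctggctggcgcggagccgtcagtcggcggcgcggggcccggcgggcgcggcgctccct
Mapk12: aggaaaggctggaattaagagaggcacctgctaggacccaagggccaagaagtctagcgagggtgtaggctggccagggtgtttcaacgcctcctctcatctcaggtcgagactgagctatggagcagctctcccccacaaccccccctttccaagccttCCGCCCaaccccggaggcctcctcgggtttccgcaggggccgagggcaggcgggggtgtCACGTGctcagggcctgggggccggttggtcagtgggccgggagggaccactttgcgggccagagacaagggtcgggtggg
Rras2: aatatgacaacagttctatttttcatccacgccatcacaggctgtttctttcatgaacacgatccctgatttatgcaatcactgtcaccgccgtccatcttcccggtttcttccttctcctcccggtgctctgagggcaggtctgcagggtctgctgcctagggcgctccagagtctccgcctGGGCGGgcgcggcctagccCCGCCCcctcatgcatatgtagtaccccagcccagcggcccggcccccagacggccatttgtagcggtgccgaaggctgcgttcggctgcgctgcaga

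All 4 windows held a GC box, which was found in 35.7% of the 32851 promoter windows of the genome. It was not particular to the called genes, since the windows of Hras and Nras held 3 each and 1 of 2 Mapk14 windows held it. Egfr held a GC box starting at position -9 and an ETS motif at -120, counted from the start, and the ETS motif occurred in 8.86% of all windows. Mras held GC boxes at -236 and -31, and Rras2 at -67 and -48. Mapk12 held a GC box at -90 and an E box at -31, the latter a match found in 7.15% of all windows. The AP-1 motif (7.81% of all windows) and the CRE (1.79%) were not matched in these 4 windows. The GC content was 62.3% for Egfr, 71.7% for Mras, 65.3% for Mapk12 and 60.3% for Rras2, against a median of 52.7% over all windows.

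Egfr was read by 3 probes, A_52_P106259 for the transcript NM_207655 and A_55_P1956862 and A_55_P1956863 for NM_007912. On A_55_P1956862 the DMSO arrays stood at -0.42, -0.59, -0.61 and -0.66 and the DINCH arrays at 0.47, -0.32, -0.06 and 0.04. All 4 DINCH arrays were above all DMSO arrays, and DINCH replicate 1 was the highest. The probe rose by 0.60 (standard error 0.16, limma adjusted p = 0.0422, 1.52-fold), just past the fold required.

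On A_55_P1956863 the DMSO arrays stood at -0.72, -0.79, -0.76 and -0.92 and the DINCH arrays at 0.20, -0.40, -0.56 and -0.36. The groups again did not overlap, yet the difference of 0.52 (standard error 0.16) did not pass (limma adjusted p = 0.0693). It was 0.52 with replicate number as a block and 0.56 with slide as a block (limma adjusted p = 0.0464 and 0.027), both under the fold required. On A_52_P106259 the DMSO arrays stood at 1.96, 1.43, 1.71 and 1.51 and the DINCH arrays at 2.09, 1.89, 2.01 and 2.04. Here 3 of 4 DINCH arrays lay above every DMSO array, with a difference of 0.36 (standard error 0.13, limma adjusted p = 0.111).

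The Egfr call with DINCH was lost in 7 of 8 runs that left out 1 array, namely without each DMSO replicate in turn and without DINCH replicates 1, 3 or 4, where the adjusted p reached 0.113. Without DINCH replicate 1 the difference was 0.45. With normexp background correction it was 0.46 (limma adjusted p = 0.0197), under the fold required. That correction adds an offset of 50 to every intensity, which shrinks log2 differences of dim probes. How much of the lower value came from it was not tested. With slide as a block the difference was 0.58 (limma adjusted p = 0.0247), which fell just short of the fold, so the call was lost there too. Within the 3 slides it was 0.89, 0.28 and 0.64. With replicate number as a block it was 0.60 (limma adjusted p = 0.0258), and there the call held.

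With DOM the difference had the opposite sign. The DOM arrays stood at -1.06, -0.99, -1.22 and -1.09 on A_55_P1956862 and at -1.19, -1.15, -1.43 and -1.08 on A_55_P1956863, all below the lowest DMSO array of the same probe. The differences of -0.52 (standard error 0.10, limma adjusted p = 0.00404) and -0.41 (standard error 0.11, limma adjusted p = 0.0166) passed the adjusted p but not the fold. On A_52_P106259 the DOM arrays stood at 1.52, 1.20, 1.15 and 1.49, overlapping DMSO, and the difference was -0.31 (limma adjusted p = 0.133). With MEHP, BDB and DOS all 3 probes overlapped DMSO, with differences between -0.06 and 0.15. In the order of group means on A_55_P1956862, DINCH at the top and DOM at the bottom stood clear of their neighbours, while DOS, MEHP, DMSO and BDB overlapped their neighbours in between.

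**Figure D1:**
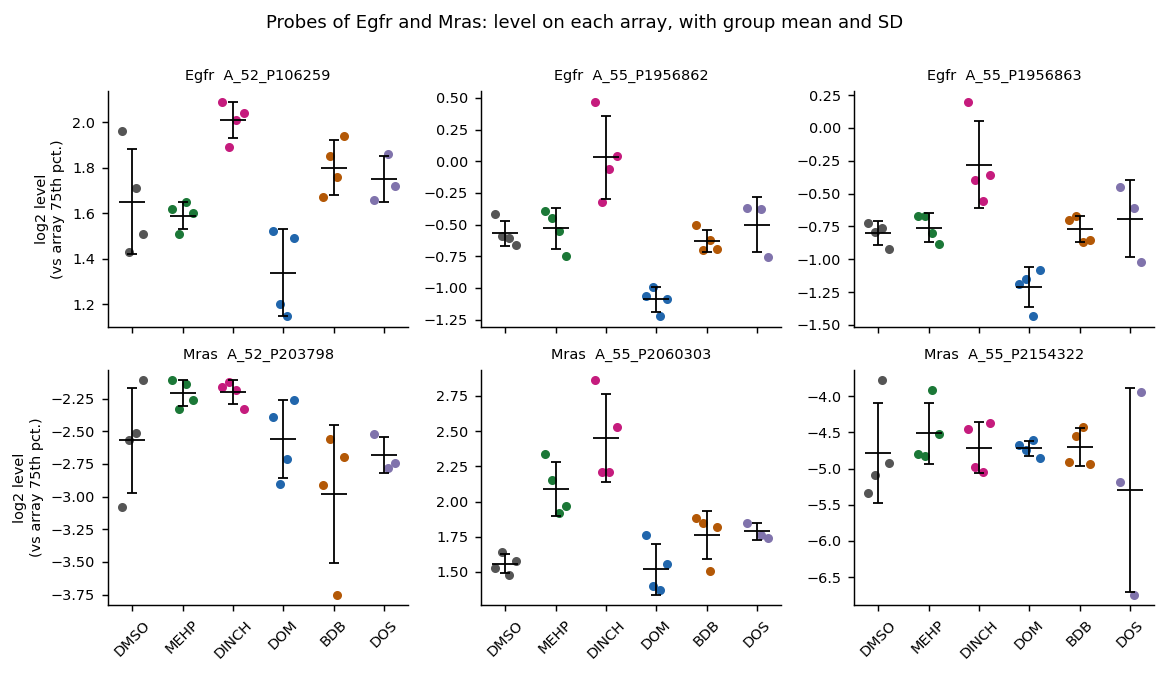
Level of each probe of Egfr and Mras on each array (y axis, log2 relative to the 75th percentile of the array, scaled separately in each panel; x axis, group), with points for arrays in replicate order and black bars for the group mean and SD. On A_55_P1956862 the DINCH arrays lie between -0.32 and 0.47 and the DOM arrays between -1.22 and -0.99, on either side of DMSO, and on the Mras probe A_55_P2060303 the DINCH arrays lie between 2.21 and 2.86.

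Mras, a RAS-related GTPase that takes part in a complex activating RAF, was brightest on A_55_P2060303. The DMSO arrays stood at 1.53, 1.64, 1.48 and 1.58, the MEHP arrays at 2.34, 2.15, 1.92 and 1.97 and the DINCH arrays at 2.86, 2.21, 2.21 and 2.53. Both treated groups were above all DMSO arrays and overlapped each other. The DINCH change of 0.89 (standard error 0.15, limma adjusted p = 0.00914) was 1.86-fold, and it kept its call in all 8 runs without 1 array (0.76 to 0.97). The MEHP difference of 0.53 (standard error 0.10, limma adjusted p = 0.0388) was 1.45-fold and was not called.

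In the other groups the same probe stayed close to DMSO. The BDB arrays stood at 1.88, 1.85, 1.51 and 1.82, the DOS arrays at 1.85, 1.76 and 1.74 and the DOM arrays at 1.76, 1.40, 1.37 and 1.56. DOS did not overlap DMSO, with a difference of 0.23 (limma adjusted p = 0.679), and the difference was 0.20 for BDB (limma adjusted p = 0.409) and -0.04 for DOM. Ordered by group mean, DINCH and MEHP overlapped, MEHP stood clear of DOS, and DOS, BDB, DMSO and DOM overlapped as neighbours.

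The dimmer Mras probe A_52_P203798 was well above background on 22 of 23 arrays. It stood at -3.08, -2.57, -2.51 and -2.11 with DMSO, at -2.16, -2.12, -2.18 and -2.33 with DINCH and at -2.11, -2.33, -2.14 and -2.26 with MEHP. The DMSO arrays spanned the whole range of both treated groups, and the differences of 0.37 (limma adjusted p = 0.237) and 0.36 (limma adjusted p = 0.379) did not pass. With BDB the arrays stood at -2.91, -2.56, -3.75 and -2.70, and replicate 3, the lowest, was the array not well above background. On the third probe, A_55_P2154322, the group means lay between -5.29 and -4.51 with no test.

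Whether probes of 1 gene moved by different amounts was tested from the within-array difference between probes, with exact two-sided permutation tests over arrays. For Egfr and Mras 20 such relations were computed. With DINCH, A_55_P2060303 moved by 0.52 more than the dimmer Mras probe, with differences between the probes of 4.34 to 5.01 on the DINCH arrays and 3.69 to 4.62 on the DMSO arrays (exact p = 0.114, adjusted 0.571). The lowest p of the family belonged to the same pair with BDB, a difference of 0.62 (exact p = 0.0857, adjusted 0.571).

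For Egfr, A_52_P106259 moved by 0.24 less than A_55_P1956862 with DINCH (exact p = 0.171) and by 0.21 more with DOM (exact p = 0.143), so that its change was nearer to 0 in both cases. Between both NM_007912 probes the change differed by 0.08 with DINCH (exact p = 0.457) and by -0.11 with DOM (exact p = 0.143). None of the 20 relations passed. The smallest p that 4 arrays against 4 allow is 0.0286, so a single relation could not have passed after adjustment over 20, and the outcome says nothing about whether the probes moved alike.

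Among the other RAS genes Rras2 changed most. Its probe A_52_P558859 stood at 4.67, 4.12, 4.16 and 4.08 with DMSO and at 3.38, 2.95, 2.99 and 2.55 with DOM. The highest DOM array was below the lowest DMSO array, and the change was -1.29 (standard error 0.19, limma adjusted p = 0.00148). Within the 3 slides the difference was -1.51, -1.16 and -1.53, and without any 1 array it lay between -1.43 and -1.16, called each time.

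Rras2 with DOS, the saturated counterpart of DOM, stood at 3.89, 3.62 and 3.78. These 3 arrays were below every DMSO array, but the difference of -0.50 (standard error 0.16, unadjusted p = 0.0147) did not pass over all probes (limma adjusted p = 0.573). The differences were -0.27 with MEHP, -0.29 with DINCH and -0.23 with BDB, each overlapping DMSO, and in each of these groups 3 of 4 arrays lay below the lowest DMSO array. DMSO replicate 1, at 4.67, stood above the other 3 DMSO arrays. Ordered by mean, DOM alone stood clear of its neighbour.

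Hras and Nras encode classical RAS proteins. The Hras probe A_51_P357664 stood at 3.51, 3.60, 3.55 and 3.59 with DMSO, at 3.35, 3.22, 3.41 and 3.51 with DINCH and at 3.29, 3.41, 3.24 and 3.36 with DOM. All arrays of both treated groups were below the lowest DMSO array (for 1 DINCH array by less than the rounding shows), with differences of -0.19 (limma adjusted p = 0.237) and -0.24 (standard error 0.09, limma adjusted p = 0.0577). The 3 Nras probes overlapped DMSO with every compound, with differences between -0.42 and 0.24. The largest in size was that of A_52_P649296 with DOM, where the arrays stood at 2.74, 2.48, 2.54 and 1.88 against 3.15, 2.79, 2.72 and 2.66 with DMSO. That difference of -0.42 (standard error 0.19, limma adjusted p = 0.123) stood beside -0.05 on A_51_P396273 and -0.15 on A_52_P566348. With DOM the probes did not differ past the threshold (exact p = 0.171 and 0.143, two-sided permutation tests over arrays). With BDB A_52_P649296 moved by 0.27 more than A_52_P566348 (exact p = 0.0286, not adjusted). That is the smallest p that 4 arrays against 4 allow.

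Mapk12 was read by A_52_P252258. The DMSO arrays stood at 2.82, 2.41, 2.52 and 2.55, the MEHP arrays at 3.32, 3.20, 3.11 and 3.17 and the DINCH arrays at 3.61, 3.14, 3.28 and 3.46. All MEHP and DINCH arrays were above all DMSO arrays, with changes of 0.63 (standard error 0.10, limma adjusted p = 0.0228) and 0.79 (standard error 0.13, limma adjusted p = 0.00936). The DOM arrays stood at 2.96, 3.01, 2.75 and 3.0, the BDB arrays at 3.18, 2.74, 2.86 and 2.96 and the DOS arrays at 3.01, 2.86 and 2.59. These 3 groups overlapped DMSO, with differences of 0.36 (limma adjusted p = 0.0443, 1.28-fold, not called), 0.36 (limma adjusted p = 0.227) and 0.25 (limma adjusted p = 0.799), so that every group mean was above that of DMSO. The 4 BDB arrays exceeded the DMSO array of the same replicate number by 0.36, 0.33, 0.34 and 0.41. Arrays of the same number in BDB and DMSO also shared a slide, so number and slide cannot be told apart. With replicate number as a block the BDB difference was still not called (limma adjusted p = 0.084).

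The DINCH call of Mapk12 held in all 8 runs without 1 array (0.72 to 0.88), and within the 3 slides the difference was 0.79, 0.67 and 0.82. The MEHP call was lost in 6 of 8 such runs, without DMSO replicates 2, 3 or 4 or MEHP replicates 1, 2 or 4, where the adjusted p reached 0.0838. With slide as a block the MEHP difference was 0.56 (limma adjusted p = 0.0257) and with normexp background correction 0.56 (limma adjusted p = 0.0197), both under the fold required.

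Mapk3, the gene of ERK1, was read by A_52_P243249 and A_55_P2121662, and both had higher means with the same 3 compounds, without a call. The differences were 0.32 and 0.32 with MEHP, 0.40 and 0.44 with DINCH and 0.38 and 0.36 with DOM, with limma adjusted p between 0.0842 and 0.294. The DMSO arrays of A_52_P243249 stood at 3.56, 3.63, 3.51 and 3.93, the DINCH arrays at 4.16, 3.80, 4.05 and 4.20 and the DOM arrays at 4.13, 4.06, 3.68 and 4.29. In each of these groups DMSO replicate 4 overlapped the treated arrays.

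Mapk14, the gene of p38 alpha, lay on A_55_P2046338 between 3.73 and 3.84 with DMSO and between 3.61 and 3.93 over all compounds. Its differences from DMSO were -0.11 to 0.10 on that probe and -0.04 to 0.26 on A_55_P2179348, none of them called. The 95% interval on A_55_P2046338 with DINCH was -0.30 to 0.08.

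**Figure D2:**
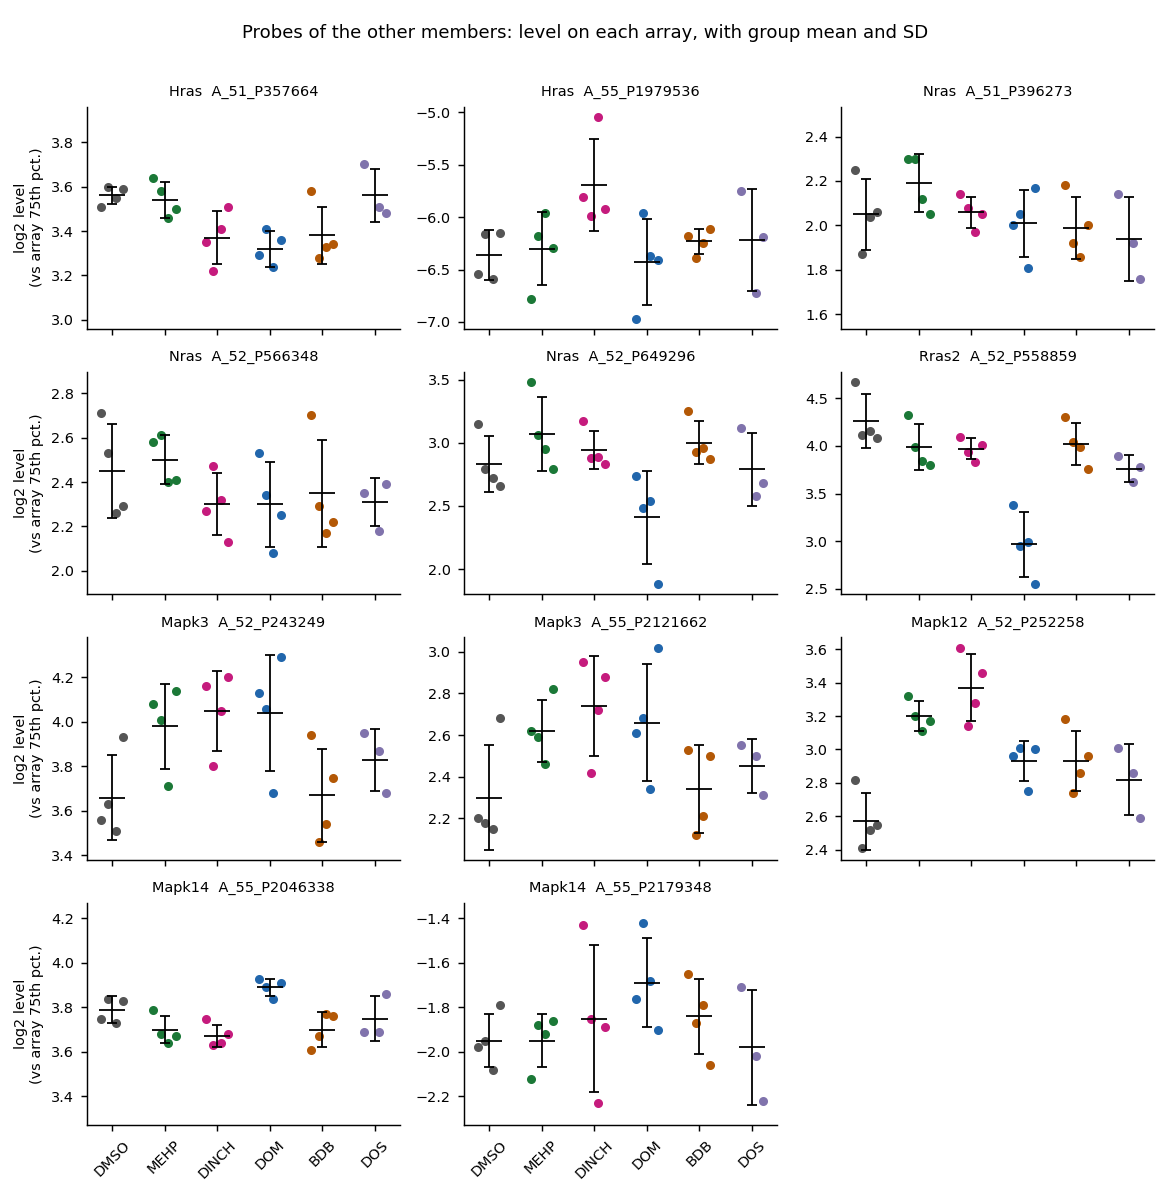
Level of each probe of Hras, Nras, Rras2, Mapk3, Mapk12 and Mapk14 on each array (y axis, log2 relative to the 75th percentile of the array, with its own range in each panel; x axis, group), with points for arrays and black bars for the group mean and SD. The Rras2 arrays with DOM lie between 2.55 and 3.38, below all others, and the Mapk12 arrays with MEHP and DINCH lie between 3.11 and 3.61, above all DMSO arrays.

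Counted by compound, DINCH called 3 of 15 tested member probes (20%), all higher, where 6.14% of all tested probes were called (3% higher and 3.14% lower). The members were chosen with earlier results of these data known. The study had also followed up Egfr, Mras and Mapk12 by qPCR after the arrays, so the member shares are not independent evidence. The ranges of DINCH and DMSO did not overlap for 5 of 15 (33.3%), against 19.5% of all tested probes. MEHP called 1 of 15 (6.67%), higher, against 1.22% (0.79% higher and 0.43% lower), with 2 of 15 not overlapping (13.3%) against 11.4%. DOM called 1 of 15 (6.67%), lower, beside 16.6% of all tested probes (7.67% higher and 8.93% lower), and 4 of 15 did not overlap (26.7%) beside 33.7%. Neither DINCH nor MEHP had a called member probe when all 55681 probes were tested without the filter on dim probes, nor on the 15 arrays with extraction measures in range. There the 3 DINCH differences were 0.53 for Egfr, 0.82 for Mras and 0.78 for Mapk12 (limma adjusted p = 0.109, 0.0724 and 0.0878). For DINCH that run lacked DINCH replicates 1 and 2 and DMSO replicate 4, so fewer arrays were compared.

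At an unadjusted p under 0.05 there were 4 member probes with MEHP, 7 with DINCH and 6 with DOM, where 16.2, 26.2 and 42.5% of all tested probes had such a p. BDB called 0 of 15 and 0% of 24291 probes with limma, and DOS 0 of 15 and 0% of 24209. At the unadjusted p BDB had 1 member probe, Mapk12, where 14.4% of all probes had such a p, and DOS had 2, Rras2 and Mras, where 7.13% had. The ranges of BDB and DMSO were apart for 0 of 15 probes, beside 9.71% of all tested probes, and those of DOS and DMSO for 2 of 15 (13.3%) beside 7.77%. The median difference over the 15 probes was 0.06 with MEHP, 0.36 with DINCH, -0.05 with DOM, 0.01 with BDB and 0.00 with DOS, beside medians over all tested probes of -0.04, -0.01, -0.08, -0.02 and -0.01.

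**Figure D3:**
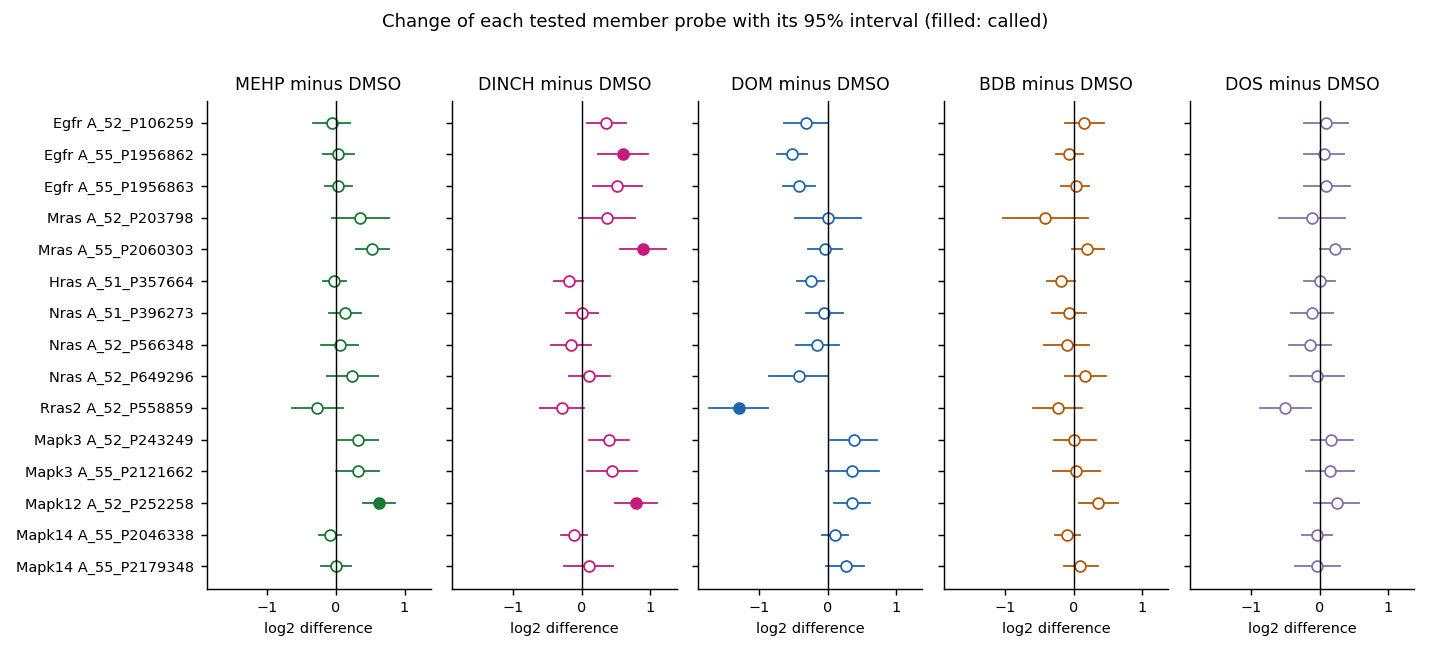
Difference of each tested member probe from DMSO (x axis, log2, with its 95% interval) for each compound, with filled points for called probes. Filled points are Mapk12 with MEHP (0.63), Egfr, Mras and Mapk12 with DINCH (0.60, 0.89 and 0.79) and Rras2 with DOM (-1.29), and no point is filled with BDB or DOS.

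All compounds were used at 1 dose and 1 time, so they were also compared with each other, in 1 fit of all 6 groups with p-values adjusted over all probes and all 10 pairs. Of the 150 tests on member probes 15 were called. Over all probes, the share called in a single pair ran from 1.29% (MEHP minus DOS) to 20.7% (DOM minus BDB). DINCH minus DOM held 5 of the 15 member calls, where 18.1% of all probes were called. All 3 Egfr probes were higher with DINCH, by 0.67 (95% interval 0.44 to 0.89), 1.12 (0.85 to 1.39) and 0.93 (0.65 to 1.22), Mras was higher by 0.93 (0.66 to 1.21) and Rras2 by 1.00 (0.66 to 1.34).

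DINCH minus BDB held 3 calls, where 7.53% of all probes were called. These were Egfr A_55_P1956862 at 0.66 (95% interval 0.39 to 0.93) and Mras at 0.69 (0.41 to 0.96) on the bright and 0.78 (0.34 to 1.22) on the dim probe. DINCH minus DOS held 1, Mras at 0.67 (0.37 to 0.96), where 5.74% were called. Mapk12, at 0.55 (limma adjusted p = 0.00483), also passed the fold for this pair with slide as a block (0.60) and without DINCH replicate 2 or DOS replicate 1, and Egfr A_55_P1956862, at 0.54, did so without DINCH replicate 2 or DOS replicates 1 or 3. Without DINCH replicate 1 these differences fell below the fold, to 0.51 for Egfr and 0.55 for Mras against BDB and 0.53 for Mras against DOS, with limma adjusted p of 0.00312, 0.00281 and 0.00633. Without BDB replicate 3 the dim Mras probe stood at 0.52 for DINCH minus BDB and at 0.51 for MEHP minus BDB, which had been called at 0.77 (0.33 to 1.21) where 2.23% of all probes were.

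DOM and DOS are diesters of maleate and succinate and differ in the double bond of the acid. Rras2 was lower with DOM, with a difference from DOS of -0.80 (95% interval -1.16 to -0.43, limma adjusted p = 0.00272), the 1 member probe called for this pair, where 11.9% of all probes were called. The differences of the 3 Egfr probes were -0.41, -0.58 and -0.52 (limma adjusted p = 0.0171, 0.00533 and 0.0177), under the fold required, so they were not called. A_55_P1956862 passed the fold with slide as a block (-0.62) and without DOM replicates 1, 2 or 4 or DOS replicate 4, where it reached -0.71, and A_55_P1956863 without DOS replicate 4 (-0.68). The intervals of the 3 probes were -0.65 to -0.16, -0.88 to -0.29 and -0.83 to -0.21. Mapk12 differed by 0.11 (95% interval -0.16 to 0.38) and the bright Mras probe by -0.27 (-0.56 to 0.03), so that a difference in either direction is within the interval for both.

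Rras2 was higher with MEHP than with DOM by 1.02 (95% interval 0.68 to 1.36), where 14.4% of all probes were called, and DOM minus BDB was -1.06 (-1.40 to -0.72), where 20.7% were called. The Nras probe A_52_P649296 was called for the same pairs, with MEHP minus DOM at 0.66 and DOM minus BDB at -0.59. The first call was lost without MEHP replicate 1 (0.52) or DOM replicate 4 (0.48), and the second without DOM replicate 4 (-0.42) or BDB replicate 1 (-0.51). In fits of only the compared pair both Nras calls and both calls of the dim Mras probe were lost, with limma adjusted p between 0.0538 and 0.0674. With normexp background correction 5 of the 15 calls were lost. The dim Mras probe stood at 0.32 for DINCH minus BDB and at 0.19 for MEHP minus BDB (limma adjusted p = 0.0425 and 0.249), Egfr at 0.47 for DINCH minus BDB and, on A_52_P106259, at 0.57 for DINCH minus DOM, and Nras at -0.55 for DOM minus BDB.

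MEHP minus DINCH held no member call, where 2.73% of all probes were called. The bright Mras probe differed by -0.36 (95% interval -0.63 to -0.08, limma adjusted p = 0.0637) and Mapk12 by -0.17 (-0.42 to 0.08), the latter interval including 0. Egfr A_55_P1956862 differed by -0.57 (-0.84 to -0.29, limma adjusted p = 0.00381), just under the fold. It passed the fold with slide as a block (-0.62) and without MEHP replicates 1 or 2 or DINCH replicates 2 or 3, where it reached -0.68. MEHP minus DOS (1.29% of all probes called) and BDB minus DOS (1.94%) also held no member call, and for BDB minus DOS the interval of the bright Mras probe was -0.32 to 0.27.

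**Figure D4:**
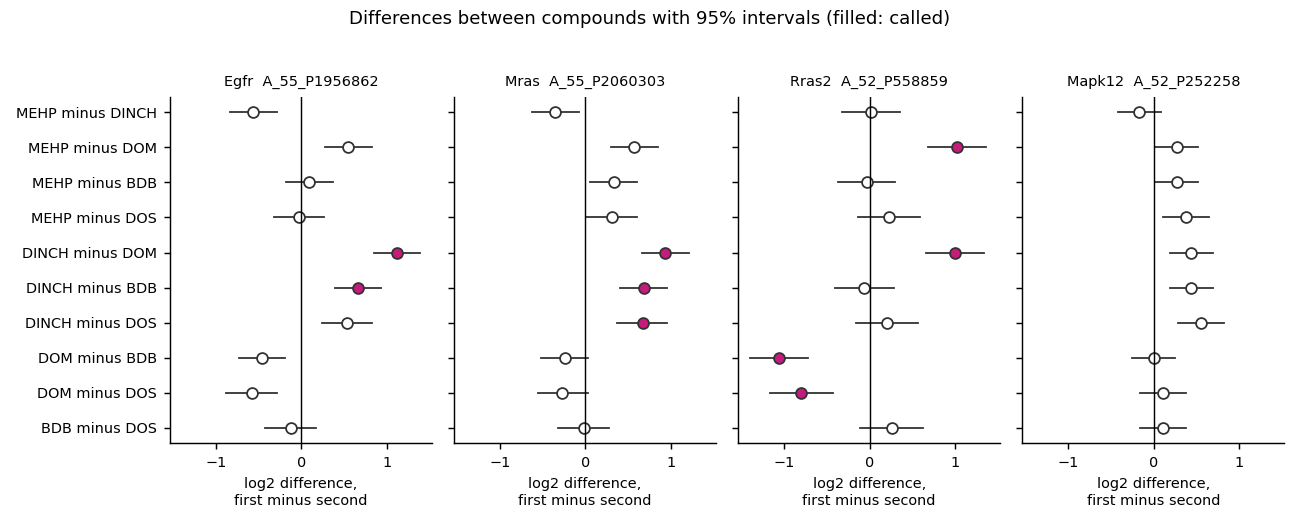
Difference between compounds (x axis, log2, first minus second, with 95% intervals from the fit of all 6 groups) for each of the 10 pairs and 4 member probes, with filled points for called differences. For Rras2 the 4 pairs that hold DOM are filled, and for Mras and Egfr the filled pairs all hold DINCH.

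The other genes of the pathway were read from 10 lists of 105 genes, of which 78 genes had 103 tested probes. With DINCH 12 of these probes were called (11.7%, against 6.14% of all probes), 3 higher and 9 lower, and with DOM 14 (13.6%, against 16.6%), 4 higher and 10 lower. Among the lower, Fos with DINCH and Rps6ka2 with DOM passed the filter only through DMSO, where they were higher. With DOM so did 1 Rheb probe, for which 1 array had no value. With MEHP, BDB and DOS limma called 0 of 103. At an unadjusted p under 0.05 there were 19, 23 and 2 of the 103 probes, where 16.2, 14.4 and 7.13% of all tested probes had such a p. Several of these genes were also named by the study from the same samples, so their direction is not independent evidence.

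On the list of transcripts that ERK signalling is known to induce, 6 of 17 probes fell with DINCH and 0 rose, where 3.14% of all tested probes were called lower. Of the 17, 2 had a difference above 0, and the median was -0.74 beside -0.01 over all tested probes. Fos, among the 6, passed the filter only through DMSO, and without it, a choice made after seeing the values, 5 of 16 probes fell with a median of -0.65. Spry1, a feedback inhibitor of receptor tyrosine kinase signalling, stood at 0.88, 1.39, 1.52 and 1.30 with DMSO and at -2.38, -0.41, -0.13 and -0.21 with DINCH. The groups were far apart and DINCH replicate 1 was the lowest, with a change of -2.05 (standard error 0.45, limma adjusted p = 0.023).

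The immediate early gene Egr1 stood at 4.78, 4.37, 4.22 and 4.39 with DMSO and at 1.68, 2.92, 2.93 and 3.14 with DINCH, a change of -1.77 (standard error 0.29, limma adjusted p = 0.00895). Fosl1, an AP-1 subunit, fell by 1.89 (standard error 0.36, limma adjusted p = 0.0137), from 0.13, -0.46, -0.42 and -0.39 to -3.33, -1.38, -1.98 and -2.02. DINCH replicate 1 was again the lowest array for both. Etv5, an ETS factor, fell by 1.65 and Myc by 0.74.

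Fos, the partner of JUN in AP-1, fell by 1.81 (standard error 0.22, limma adjusted p = 0.00363), but it was well above background on 1 of 4 DINCH arrays. With normexp background correction its difference was -0.28 (limma adjusted p = 0.108), and the call was lost. Which step of that correction lowered the difference was not tested. The calls of Egr1, Fosl1 and Fos held in all 8 runs without 1 array. That of Spry1 was lost without DMSO replicates 2, 3 or 4, that of Etv5 without DMSO replicates 1, 2 or 3 or DINCH replicate 4, and that of Myc in 7 of 8 runs, with adjusted p up to 0.07, 0.0771 and 0.114. With replicate number as a block the Myc call was also lost (limma adjusted p = 0.0623). The ERK phosphatases did not move together, with Dusp6 at -0.77 (limma adjusted p = 0.0522) and Dusp4 at 0.88 (limma adjusted p = 0.164).

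Of the 7 EGFR ligands listed 2 were tested, and both were called lower with DINCH, where 3.14% of all tested probes were. The median difference of both was -0.69 with DINCH, -0.59 with DOM, -0.21 with DOS, -0.14 with MEHP and 0.52 with BDB. Neither was called with a compound other than DINCH. With DINCH 1 Egfr probe, A_55_P1956862 for the transcript NM_007912, was called higher. The brightest Egfr probe, A_52_P106259 for the transcript NM_207655, was not called (0.36, limma adjusted p = 0.111). Ereg, which encodes epiregulin, went from 1.70, 0.82, 0.92 and 0.69 to 0.23, 0.35, 0.15 and 0.26, a change of -0.78 (standard error 0.20, limma adjusted p = 0.0397). Hbegf, which encodes a heparin-binding ligand, changed by -0.60 (standard error 0.16, limma adjusted p = 0.043). Each of these calls was lost in 7 of 8 runs without 1 array (that of Ereg held without DMSO replicate 4, as did that of Hbegf), with adjusted p up to 0.0895 and 0.121. With slide as a block Hbegf stood at -0.54 (limma adjusted p = 0.0575), and its call was lost.

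Higher with DINCH were the RAS-related gene Rras (0.63, limma adjusted p = 0.0182) and Rps6ka1 and Rps6ka5, kinases activated by ERK or p38 (0.75 and 0.62, limma adjusted p = 0.0154 and 0.00607). Map2k4, a MAP kinase kinase of the stress branch, fell by 0.74 (limma adjusted p = 0.0306). Rps6ka1 kept its call in all 8 runs, Rras lost it without DMSO replicate 3 (or DINCH replicates 1 or 4), Rps6ka5 without DMSO replicate 3 or DINCH replicate 4 and Map2k4 in 6 of 8 runs. With normexp background correction the differences of Rras, Rps6ka1 and Rps6ka5 were 0.58, 0.58 and 0.45, under the fold required, and with slide as a block Rras, at 0.58, also lost its call. On the lists of adaptors and exchange factors, RAS GTPase-activating proteins, RAF kinases and scaffolds, other MAP kinases and other ERBB receptors 0 probes were called with DINCH.

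With DOM 4 of the 17 ERK output probes fell and 0 rose, where 8.93% of all tested probes were called lower. Ccnd1, which encodes cyclin D1, fell by 1.32 (standard error 0.25, limma adjusted p = 0.00445), both Etv4 probes fell by 1.30 and 1.27 and Etv5 fell by 1.14. The immediate early genes Fos (0.10) and Egr1 (0.15) and Spry1 (0.17) were not called. The median over the 17 was -0.21 beside -0.08 over all tested probes. Etv5 was called lower with both DINCH and DOM, and whether the lists of called genes differ was not tested.

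Among the adaptors, Frs2, a docking protein of fibroblast growth factor receptors, rose by 1.26 with DOM (standard error 0.11, limma adjusted p = 0.00021), from 2.65 to 2.83 on the DMSO arrays to 3.90 to 4.26 on the DOM arrays. Gab1 rose by 0.70 and Rasa3, a RAS GTPase-activating protein, by 0.84. Of the GTPases beside Rras2, Rheb fell on both probes by 1.14 and 0.88, the latter with 3 DOM arrays since an outlier spot left replicate 3 without a value (limma adjusted p = 0.0594 with slide as a block), and Rap1a fell by 0.75.

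The kinases below ERK moved in both directions with DOM, with Rps6ka1 higher by 0.75 (limma adjusted p = 0.00566) and Rps6ka2, Rps6ka3 and Mknk1 lower by 1.53, 0.62 and 0.60. Rps6ka2 was well above background on 2 of 4 DOM arrays and passed the filter only through DMSO. With normexp background correction its difference was -0.52. The same correction left Gab1 at 0.45, Rap1a at -0.47, Rps6ka3 at -0.54 and Mknk1 at -0.45, under the fold required. Left out in turn, arrays ended the calls of Gab1 (5 of 8 runs), Rheb (4 and 5 of 8), Rps6ka3 (without DMSO replicate 1 or DOM replicate 3) and Mknk1 (4 of 8), and those of Ccnd1, Etv4, Etv5, Frs2, Rasa3, Rps6ka1, Rps6ka2 and Rap1a held in all 8.

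**Figure D5:**
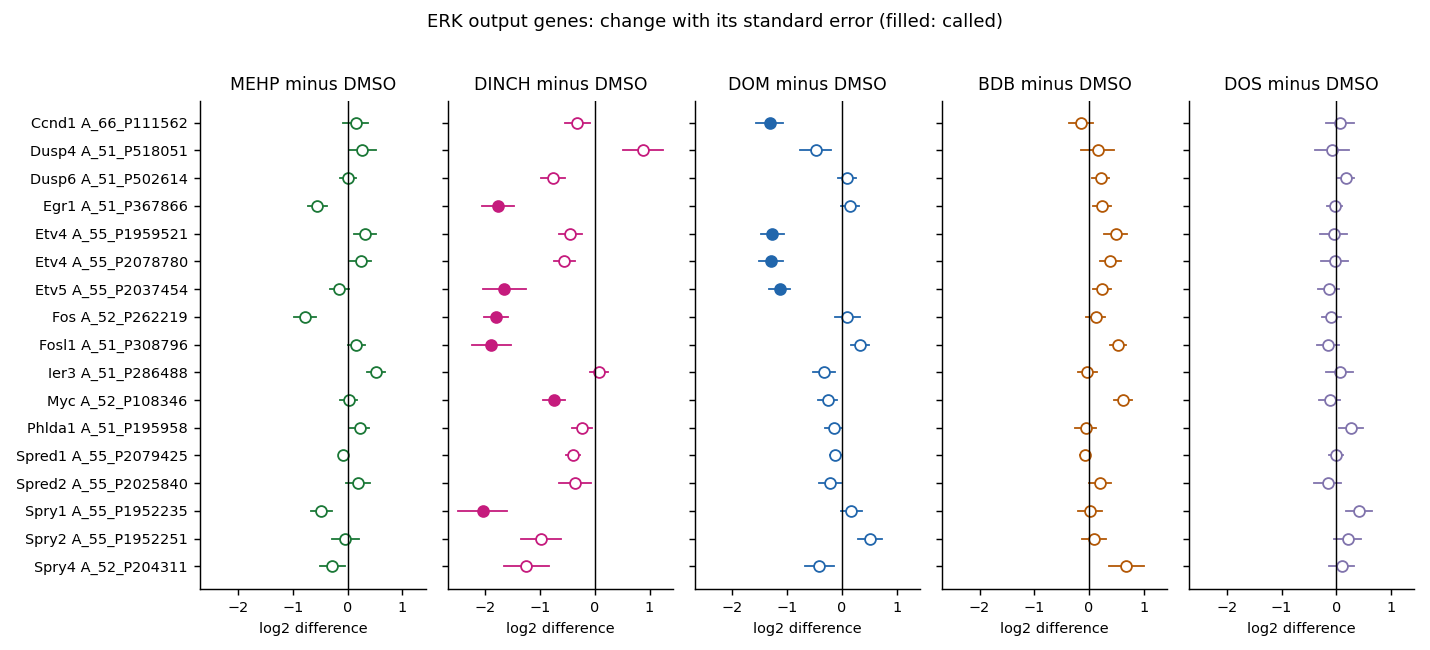
Difference from DMSO (x axis, log2, with bars of 1 standard error) for the 17 tested probes of genes that ERK signalling is known to induce, for each compound, with filled points for called probes. With DINCH 6 points are filled, from Spry1 at -2.05 to Myc at -0.74, and with DOM 4, all of them Ccnd1, Etv4 and Etv5.

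The named probes whose levels over the 23 arrays were most like those of 3 members were found by Pearson's r, as a description over arrays that share slides and scaling. Like the bright Mras probe, among 15910 probes searched, were Tubd1 (0.96), Timm17b (0.95), Nabp2 (0.94), Arl2 (0.94) and Spata6 (0.93). Like Mapk12 were Abcd4 (0.93), Nos3 (0.92), Dixdc1 (0.92), Pold4 (0.90) and Rtkn (0.90). Like Egfr A_52_P106259 were Zfp280c (0.88), Lig3 (0.87), Gask1b (0.87), Oxct1 (0.87) and Fip1l1 (0.86).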

How the data were processed

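RNA of TM4 cells was hybridised to 1-colour mouse gene expression arrays, 1 array per culture, and the authors deposited the scanner files, whose processed signal is a spot intensity after background subtraction by the scanner software, together with a table of log2 values. Against the deposited log2 table, which is centred per probe, the values computed here correlated at 0.9996 or more on the same array.

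Control and outlier spots were left out, spots of a probe were averaged, and log2 intensity minus the array's 75th percentile was taken. Tests were run on probes that every array of at least 1 compared group showed well above background and not under its 20th percentile. Each compound was compared with DMSO with limma 3.58.1 (R 4.3.3), with the Benjamini-Hochberg adjustment taken over all tested probes. The scripts were tested on simulated data. The number of arrays limits the precision. The labels call the replicates biological. Probes were named through RefSeq accessions. Replicate numbers shared between compound and DMSO deviated together in every pair for DINCH (correlations 0.17 to 0.50), BDB (0.25 to 0.43) and DOS (0.20 to 0.45). For MEHP (-0.14 to 0.45) and DOM (0.04 to 0.43) the lowest correlation was under the 0.1 required. Arrays of the same number mostly also shared a slide, so the effects of number and slide are not separate. Alternatives changed the background correction, normalization, filter, samples and blocks, and left out each array. The normexp background correction started from the median spot and background signals instead of the processed signal, and used an offset of 50. Which of these lowered the differences under it was not tested. The named genes were all member probes, the called genes of 10 pathway lists and the 5 probes most like 3 members. The members and lists were chosen with earlier results of these data known. A Sertoli cell marker of the list used is not reported here.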

Additional observations from a re-analysis of the deposited data

Results flagged for a closer look

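In 80 groups of 4 arrays the highest or lowest array of a member probe was set against the others by Dixon's criterion, which chance alone meets in about 1 of 20 groups, and 3 groups met it. For the bright Mras probe A_55_P2060303, BDB replicate 3 stood at 1.51, below the other BDB arrays, of which the nearest was at 1.82. For Rras2, DMSO replicate 1 stood at 4.67, above the nearest DMSO array at 4.16, and without it the DOM difference was -1.16 (limma adjusted p = 0.00379). For the Mapk3 probe A_55_P2121662, DMSO replicate 4 stood at 2.68, above the nearest at 2.20.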

How the results depend on the processing

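No called result changed direction under the alternatives run. Rras2 with DOM stayed called under all alternatives run. With normexp background correction the counts over all probes were 147 with MEHP (295 as reported), 775 with DINCH (1473), 2386 with DOM (4042), 56 with BDB (0) and 2 with DOS (0), the member count with MEHP was 0 (1) and the pathway count with DOM 9 (14). Without the filter on dim probes the counts were 3 with MEHP and 137 with DINCH, the member counts 0 and 0 (1 and 3), and the pathway counts 1 with DINCH (12) and 9 with DOM. With 1 array above background enough, they were 127 with MEHP and 883 with DINCH, and 0 members with MEHP. With slide as a block BDB had 149 called probes, MEHP 0 members and 2 pathway probes (0). With all 6 groups in 1 fit BDB had 172 called probes and 1 pathway probe. On the 15 arrays with extraction measures in range, an alternative chosen after seeing the data, 86 probes were called with MEHP, 4 with DINCH and 19 with DOS, and 0 members with MEHP and DINCH. The causes were not tested. The replicate block gave 372 probes with MEHP, 1697 with DINCH, 4281 with DOM and 0 with BDB and DOS, left member counts at 1, 3, 1, 0 and 0, and ended the call of Myc with DINCH.

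Leaving out each array in turn gave 114 to 347 probes with MEHP, 828 to 1553 with DINCH, 3649 to 4368 with DOM, 0 to 0 with BDB and 0 to 18 with DOS. Member counts were 0 to 1 with MEHP, 2 to 3 with DINCH, 1 to 1 with DOM, 0 with BDB and DOS, and 12 to 18 over pairs of compounds. The lowest counts came without MEHP replicate 4 and without DMSO replicate 3 (DINCH), and the 18 with DOS without DOS replicate 3.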
